A study of Sus scrofa with 20 samples.

Results

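The core circadian clock was followed here through 10 genes, CLOCK, NPAS2, PER1, PER2, PER3, CRY1, CRY2, NR1D1, NR1D2 and DBP, which were found in the table by gene symbol. Of these 10 genes, 9 had a row among the 25880 gene rows of the count table, and 6 (CLOCK, NPAS2, PER1, PER2, CRY2 and NR1D1) had enough counts to be tested among 7090 tested genes. CRY1, NR1D2 and DBP had too few counts to test, and no identifier was matched to PER3 by symbol, so PER3 was not analysed here. RNA came from the hypothalamus of 20 pigs aged 2 months, with 1 library per animal. The groups were 5 males and 5 females of a cross between the Iberian breed and Large White, a lean breed, and 5 males and 5 females of pure Iberian descent, a breed known for fat deposition. The crossbred animals therefore carry Iberian ancestry too, and the labels name no further treatment.

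The circadian clock is a feedback loop of transcription found in nearly every mammalian cell, known mostly from work in mice. CLOCK or its close relative NPAS2 pairs with BMAL1 and activates genes that carry E-box elements, among them the PER and CRY genes, whose proteins return to the nucleus and repress that activation. In a second loop the nuclear receptors NR1D1 and NR1D2 (REV-ERB alpha and beta) are activated by the same pair and repress BMAL1, while DBP is an output factor that binds D-box elements. The suprachiasmatic nucleus of the hypothalamus holds the master pacemaker, which is set by light, whereas other hypothalamic nuclei carry clocks that also respond to feeding. Transcripts of most of these genes swing over the day, and the labels do not give the hour at which tissue was collected. Animals collected at different hours, or breeds or sexes collected in different order, cannot be told apart from differences of any other origin.

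Counts assigned to genes amounted to 1430138 to 2384615 per library, which was 4.04 to 4.62% of all entries, while 80.2 to 88.1% matched no annotated feature. The count for ND6, a mitochondrial gene coded on the strand opposite to most others, was 141 times that for COX1 in Iberian male 5. In the other 19 libraries it was 19.8 to 53.7 times that for COX1. Iberian male 5 also had the highest share in no feature, 88.1%. No source used here says whether counting used strand, and this was not tested. The doubt touches the counts of every gene, not only of genes that overlap a neighbour. Overlaps are named because reads of the neighbour may be counted there. Iberian male 5 stood apart on the first principal component, at 64.0 against -9.40 to 1.20 in the other 19 libraries. It held 157 PRL, 163 CGA and 111 FSHB counts, transcripts of the anterior pituitary, while no other library had over 4, 2 and 2. The other markers of that list differed less. CHGA had 452 counts there and 123 to 328 in the other libraries. TSHB and GHRHR had 2 counts each (at most 1 elsewhere), and POU1F1 had 1 (up to 5 elsewhere). Its summed level over the 10 anterior pituitary markers, of which 7 had a row and 0 were at 0 in every library, was 688 CPM (counts scaled to library size), against 92.4 to 144 CPM in crossbred animals and at most 143 CPM in the other Iberian animals. Its hypothalamic peptide sum was 80.6 CPM (23.1 to 54.1 CPM in crossbred and 21.6 to 69.7 CPM in other Iberian animals), and its neuronal sum was 207 CPM (123 to 157 CPM in crossbred and 119 to 165 CPM in other Iberian animals). The share of entries dropped for low alignment quality was 5.33 to 5.92% in 7 libraries, all Iberian (5 females and males 2 and 3), and 2.73 to 3.88% in the 13 others. Outside Iberian males, breed and this share cannot be told apart. Results that moved when Iberian male 5 was left out are given with and without it. In bulk tissue, fewer cells of a type and less RNA per cell cannot be told apart.

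Levels are given in CPM, which are not scaled to gene length, so levels of different genes were not ranked against each other. CLOCK (ENSSSCG00000008909, Sscrofa11.1 chr8:54793323-54910192) codes for one of the activators. It was read at 11.8, 12.3, 9.47, 5.34 and 14.1 CPM in crossbred males and at 7.51, 11.5, 11.5, 7.32 and 10.7 CPM in crossbred females. Iberian males had 12.7, 10.8, 9.3, 11.6 and 27.1 CPM, and Iberian females had 12.1, 10.9, 6.19, 10.2 and 11.5 CPM. The groups overlapped, and the value furthest from the rest belonged to Iberian male 5. CLOCK had 411 counts over all animals, 11 to 35 per library, so that counting error alone was 22.1% of the level at the mean count. Its spread within groups was 2.46 times the variance that counting error gives, and 1.18 times without Iberian male 5. The gene overlaps TMEM165 by 3030 bases, and TMEM165 had 9699 counts, so part of CLOCK's counts is uncertain.

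NPAS2 (ENSSSCG00000008171, chr3:53298805-53490375), the relative of CLOCK that is prominent in the mammalian forebrain, had 71 to 195 counts per library. Crossbred males had 42.7, 57.3, 69.3, 47.6 and 77.9 CPM, and crossbred females had 41.0, 65.3, 62.8, 52.8 and 58.4 CPM. Iberian males had 102, 63.7, 67.3, 83.5 and 94.5 CPM, and Iberian females had 109, 73.0, 47.9, 70.6 and 63.7 CPM. Of 10 crossbred animals, 9 lay below the Iberian median, although the ranges overlapped. Iberian male 1 and Iberian female 1 were the highest of all 20. NPAS2 varied within groups at 6.83 times the variance of counting error (7.10 without Iberian male 5), so that its differences between animals were well above counting error. Over all tested genes the median of this ratio was 2.00. BMAL1, the partner of both activators, was tested as another loop gene and ran from 51.9 to 74.5 CPM, with 62.8 ± 5.71 CPM in crossbred and 65.9 ± 6.74 CPM in Iberian animals (SD, n = 10 each). Its spread within groups was 1.22 times that of counting error (0.985 without Iberian male 5).

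Among the repressors, PER1 (ENSSSCG00000017983, chr12:53361863-53376723) codes for a period protein whose transcript also responds acutely to light and to glucocorticoids. It had 4 to 22 counts per library, with 7.37, 6.65, 4.73, 8.89 and 6.77 CPM in crossbred males and 3.47, 8.24, 8.19, 3.66 and 8.78 CPM in crossbred females. Iberian males had 10.1, 7.96, 4.43, 9.43 and 15.5 CPM, and Iberian females had 5.69, 2.89, 7.32, 5.81 and 5.75 CPM. Iberian male 5 was again the highest of all, and the groups overlapped. PER1 lies 1683 bases from VAMP2 and its spread within groups was 1.64 times that of counting error (1.31 without Iberian male 5).

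PER2 (ENSSSCG00000016338, chr15:137793419-137837854), the second period gene, had 7 to 18 counts per library. Its levels were 4.91, 6.65, 6.89, 4.00 and 6.21 CPM in crossbred males and 8.09, 5.49, 6.55, 7.32 and 8.16 CPM in crossbred females. In Iberian males they were 5.29, 6.25, 6.2, 5.57 and 9.30 CPM, and in Iberian females 6.40, 5.06, 6.19, 8.22 and 7.18 CPM. All 4 groups overlapped, and the spread within groups was 0.458 times that of counting error. Differences between animals in PER2 were thus not detectable at this depth.

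CRY2 (ENSSSCG00000013270, chr2:16587101-16620380) codes for a cryptochrome, the partner that carries PER proteins into repression. Crossbred males had 3.93, 7.68, 4.3, 7.12 and 5.64 CPM, and crossbred females had 3.47, 5.49, 2.18, 4.47 and 7.53 CPM. Iberian males had 5.29, 6.25, 6.2, 6.85 and 15.5 CPM, and Iberian females had 7.11, 2.89, 7.32, 5.81 and 7.66 CPM. These values rest on 4 to 20 counts per library and the groups overlapped. Iberian male 5 was the highest, and the spread within groups was 1.7 times that of counting error with it and 0.953 times without it. MAPK8IP1, with 3942 counts, lies 2337 bases away.

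NR1D1 (ENSSSCG00000036933, chr12:22263549-22274131), the nuclear receptor that represses BMAL1, held 124114 counts over all animals, 3377 to 8599 per library. Crossbred males had 3278, 3557, 3198, 3824 and 3304 CPM, and crossbred females had 3098, 3019, 3399, 3316 and 3273 CPM. Iberian males had 2847, 3155, 3283, 3452 and 2616 CPM, and Iberian females had 3469, 3238, 3413, 3193 and 3040 CPM. The groups overlapped and Iberian male 5 was the lowest of all. Counting error at this depth was 1.27% of the level, and the spread within groups was 34.0 times that of counting error (27.9 without Iberian male 5). NR1D1 overlaps THRA, the thyroid hormone receptor alpha gene, by 3626 bases (THRA at chr12:22270506-22296684), and mammalian annotations place these genes on opposite strands. THRA had 27469 counts, and the ratio of NR1D1 to THRA counts was 2.09 in Iberian male 5 and 3.81 to 5.95 in the other 19 libraries. Because a stated strand setting is missing, reads from the shared stretch cannot be told apart. How much of the NR1D1 count came from THRA is therefore not known, and the NR1D1 values below carry this doubt.

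**Figure D1:**
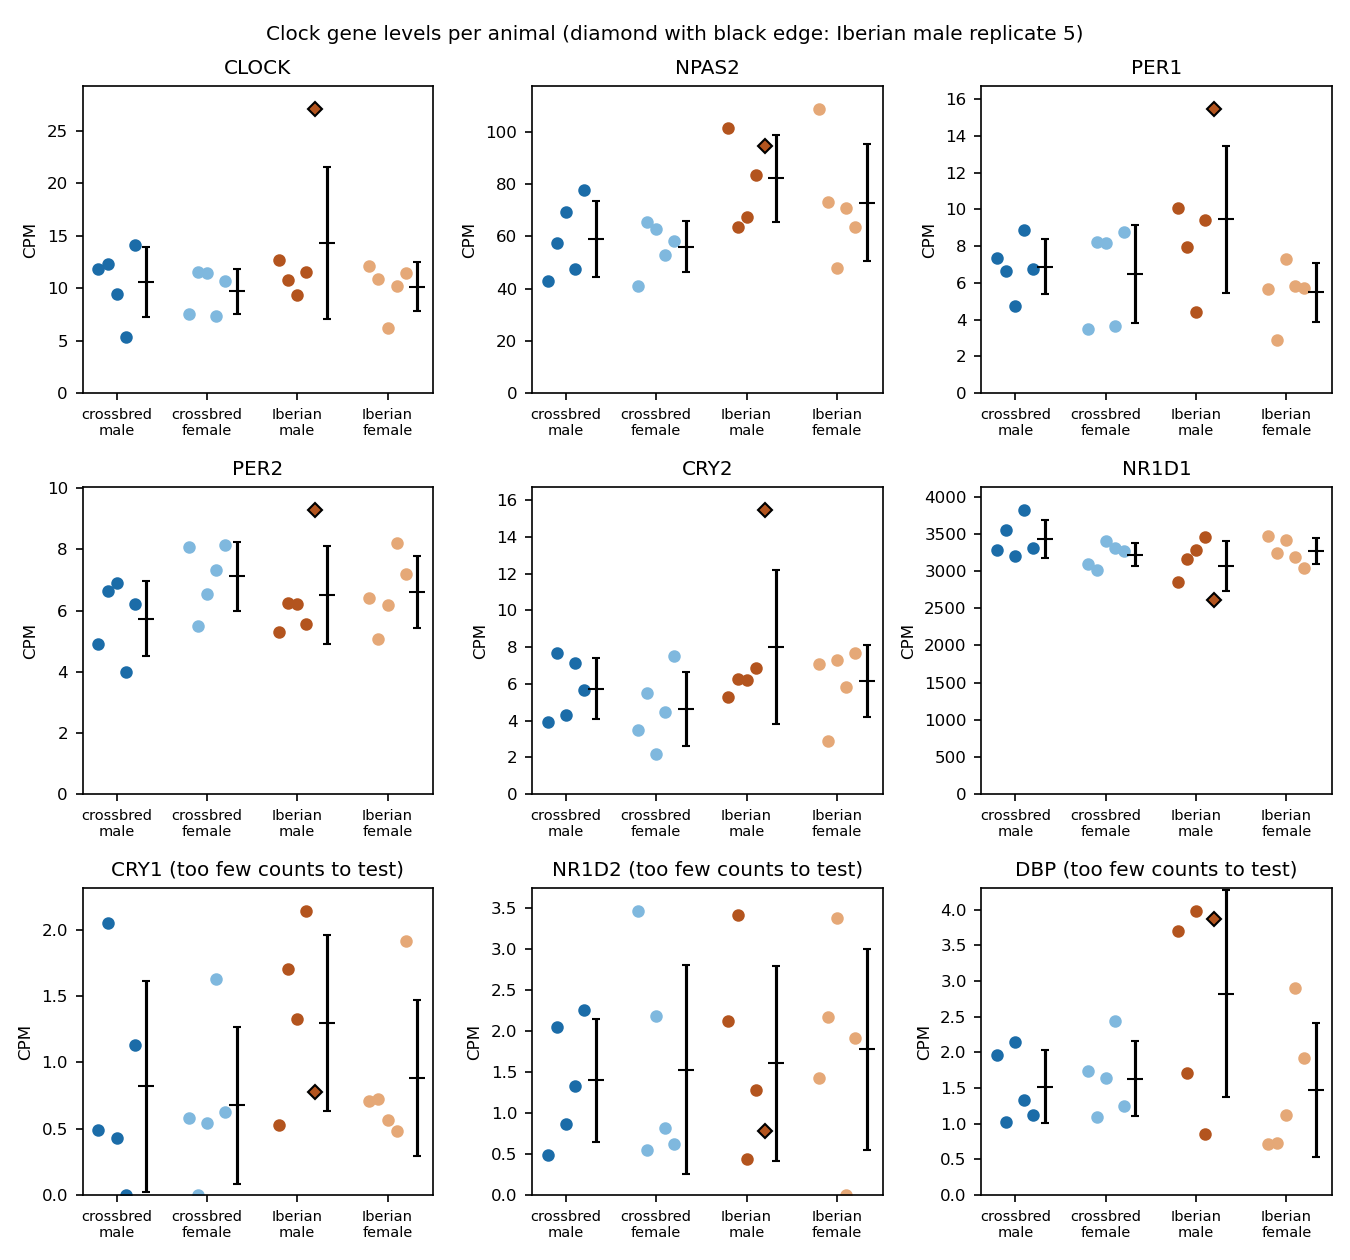
Level of the 9 clock genes with a row in each of 20 pigs, in CPM on a linear axis that starts at 0 and is scaled per gene, with crossbred males and females left of Iberian males and females. Each point is 1 animal, bars are group means with SD (n = 5), and the diamond is Iberian male 5: it is the highest for CLOCK at 27.1 CPM and the lowest for NR1D1 at 2616 CPM.

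The remaining genes could be described by counts only. CRY1 (ENSSSCG00000000164, chr5:13275265-13429566), the other cryptochrome, had 36 counts in all, with 1, 4, 1, 0 and 2 in crossbred males, 1, 0, 1, 4 and 1 in crossbred females, 1, 3, 3, 5 and 1 in Iberian males and 1, 1, 1, 1 and 4 in Iberian females. NR1D2 (ENSSSCG00000027017, chr13:10756954-10791219), the second REV-ERB gene, had 58 counts, with 1, 4, 2, 3 and 4 in crossbred males, 6, 1, 4, 2 and 1 in crossbred females, 4, 6, 1, 3 and 1 in Iberian males and 2, 3, 6, 0 and 4 in Iberian females. DBP (ENSSSCG00000003148, chr6:53986955-53993044) had 72 counts, with 4, 2, 5, 3 and 2 in crossbred males, 3, 2, 3, 6 and 2 in crossbred females, 7, 3, 9, 2 and 5 in Iberian males and 1, 1, 2, 6 and 4 in Iberian females. No animal of either breed exceeded 9 counts for any of these genes. Summed over animals, DBP stood at 1.62 CPM in crossbred (exact Poisson interval 1.11 to 2.29 at 95%) and at 2.19 in Iberian animals (1.57 to 2.98). CRY1 stood at 0.759 (0.425 to 1.25) in crossbred and 1.15 (0.712 to 1.76) in Iberian animals, and NR1D2 at 1.42 (0.941 to 2.05) in crossbred and 1.64 (1.11 to 2.35) in Iberian animals. The intervals of the breeds overlapped for each gene, and they cover counting error only. CRY1 overlaps MTERF2 and TMEM263, while DBP lies 175 bases from SPHK2 and 138 bases from CA11.

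The first question was whether clock transcripts differed between breeds. Of the 6 tested clock genes, 0 passed the threshold (edgeR quasi-likelihood test, adjusted p under 0.05 over 7090 genes), where 0.226% of all tested genes did. At an unadjusted p under 0.05 the count was 1 of 6, against 7.48% of all genes. NPAS2 was that gene, with a mean of 57.5 ± 11.8 CPM in crossbred and 77.5 ± 19.2 CPM in Iberian animals (SD, n = 10 each). Its log2 difference was -0.42 (SE 0.134), with an unadjusted p of 0.00366 and an edgeR adjusted p of 0.328. NPAS2 ranked 79 of 7090 genes by p. The 95% interval of its fold, crossbred over Iberian, was 0.622 to 0.895.

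In the main fit the other clock genes had breed differences whose 95% intervals included no difference. CRY2 averaged 5.18 ± 1.84 CPM in crossbred and 7.09 ± 3.25 CPM in Iberian animals, which is -0.43 on the log2 scale (edgeR SE 0.24, adjusted p = 0.70). Without Iberian male 5 the Iberian mean was 6.15 ± 1.44 CPM (n = 9) and the log2 difference was -0.28. CLOCK averaged 10.2 ± 2.70 CPM in crossbred and 12.2 ± 5.54 CPM in Iberian animals, with a log2 difference of -0.23 (SE 0.202) that became -0.08 without Iberian male 5, when the Iberian mean was 10.6 ± 1.93 CPM. PER1 averaged 6.68 ± 2.05 CPM in crossbred and 7.48 ± 3.56 CPM in Iberian animals, with a log2 difference of -0.11, or -0.01 without that library. For CLOCK, CRY2 and PER1 the size of the breed difference thus changed when a single animal was left out. It also changed with the model. When the high or low share of low-quality alignments entered it, the log2 differences were -0.71 for CLOCK (SE 0.326), -0.76 for CRY2 (SE 0.398) and -0.72 for PER1 (SE 0.355). Their edgeR adjusted p were 0.41, 0.47 and 0.448. That share varied within groups among Iberian males alone.

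PER2 averaged 6.43 ± 1.33 CPM in crossbred and 6.57 ± 1.33 CPM in Iberian animals, and the interval of its fold ran from 0.764 to 1.25. NR1D1 averaged 3327 ± 230 CPM in crossbred and 3170 ± 274 CPM in Iberian animals, which is 0.07 on the log2 scale (edgeR SE 0.0555, adjusted p = 0.807), with a fold interval of 0.973 to 1.13. In the main fit the NR1D1 interval thus reached a fold of 1.13, while for PER1 the interval ran from 0.678 to 1.26. With the share of low-quality alignments in the model, the NR1D1 log2 difference was 0.15 (SE 0.0962). In all, 5 of 6 clock genes had a breed difference below 0, with a median of -0.17 on the log2 scale, beside 50.9% of all tested genes and a median of -0.004. When Iberian male 5 was left out, 4 of 6 lay below 0 with a median of -0.04, beside 48.4% of all tested genes and a median of 0.006, and PER2 was at 0.03.

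Within sexes, 0 of 6 clock genes passed the adjusted threshold in either males or females, where 0.0282% of all genes passed in males and 0% in females. At an unadjusted p under 0.05 the counts were 2 of 6 in males (10.7% of all genes) and 0 of 6 in females (5.53%). In males the log2 difference of NPAS2 was -0.48 (SE 0.188, edgeR adjusted p = 0.339), with each of 5 crossbred males below the Iberian male median. For NR1D1 in males the log2 difference was 0.16 (SE 0.078, edgeR adjusted p = 0.463), with 3432 ± 257 CPM in crossbred and 3071 ± 337 CPM in Iberian males (SD, n = 5 each). Without Iberian male 5 the Iberian male mean of NR1D1 was 3184 ± 256 CPM (n = 4), its log2 difference was 0.11 (edgeR unadjusted p = 0.096, adjusted p = 0.508), and NPAS2 was the 1 of 6 clock genes left at an unadjusted p under 0.05 in males, where 11.8% of all genes were. In females the NPAS2 difference was -0.37 (SE 0.191, edgeR adjusted p = 0.906), and 5 of 5 crossbred females lay below the Iberian female median. The test of whether the breed difference depended on sex gave 0 of 6 clock genes, also at an unadjusted p under 0.05, with edgeR adjusted p from 0.657 to 0.990. Of all genes, 0.0141% passed the adjusted threshold and 8.36% the unadjusted one.

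Between sexes, 0 of 6 clock genes passed at either the adjusted threshold (0.0705% of all genes) or an unadjusted p under 0.05 (3.6%). PER1 had the smallest p, at 8.18 ± 3.16 CPM in males and 5.98 ± 2.14 CPM in females (SD, n = 10 each), a log2 difference of 0.41 (SE 0.227, unadjusted p = 0.081, edgeR adjusted p = 1.00). The fold interval of PER1, males over females, was 0.976 to 1.81. With Iberian male 5 left out, the male mean of PER1 was 7.37 ± 1.955 CPM (n = 9) and the log2 difference was 0.31 (SE 0.22, edgeR unadjusted p = 0.172). CLOCK averaged 12.5 ± 5.69 CPM in males and 9.93 ± 2.11 CPM in females, and CRY2 6.88 CPM in males and 5.39 CPM in females, which is 0.28 for CLOCK and 0.30 for CRY2 on the log2 scale. Leaving that animal out, the male means were 10.8 ± 2.55 CPM for CLOCK and 5.92 ± 1.26 CPM for CRY2 (n = 9), with log2 differences of 0.12 and 0.15. NR1D1 had a log2 difference of 0.0004 between the sexes, with a fold interval of 0.928 to 1.079. PER2 had a log2 difference of -0.19, with a fold interval of 0.685 to 1.12, and -0.26 without Iberian male 5.

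The breed result was also taken with alternatives in scaling, filter, tool and libraries. Over 840 values of the 6 clock genes in 5 contrasts and 28 alternative settings, 0 passed the threshold, including those by DESeq2 and limma voom. The smallest adjusted p was 0.0562, for NPAS2 between breeds with no filter on low counts. When the high or low share of low-quality alignments entered the model, the NPAS2 difference was -0.77 (SE 0.216, edgeR adjusted p = 0.23), with a share that within the 4 groups varied among Iberian males alone. The NPAS2 difference without Iberian male 5 was -0.39 (edgeR adjusted p = 0.391).

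**Figure D2:**
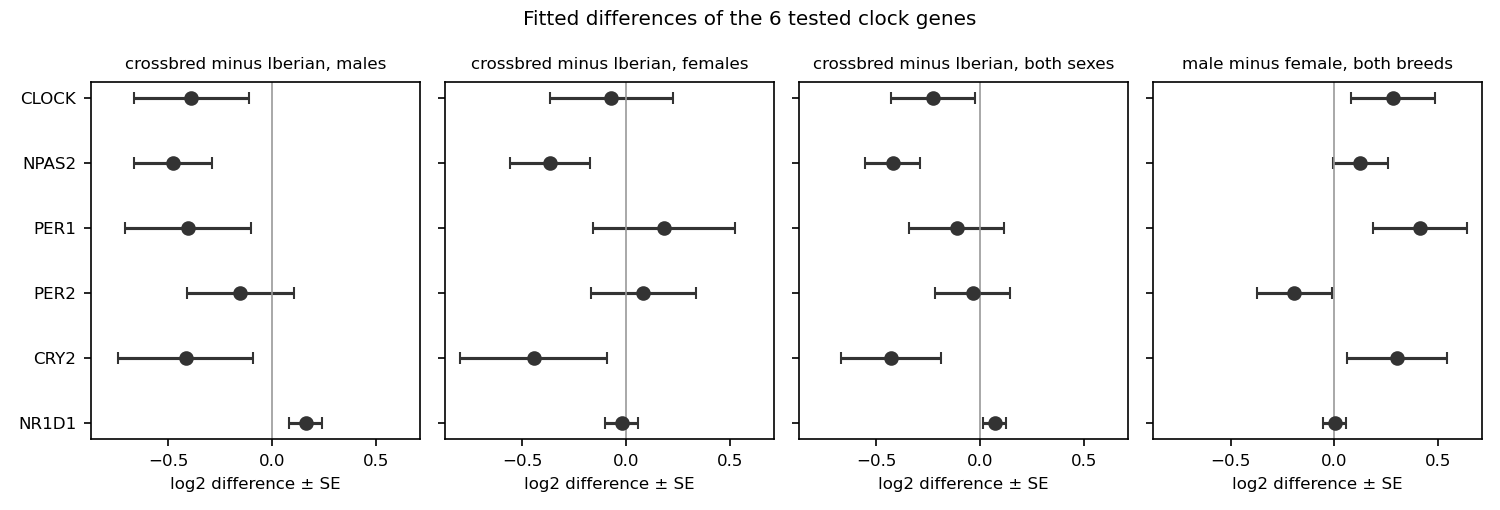
Fitted log2 difference (points) with its SE (bars) for the 6 tested clock genes, in 4 panels: crossbred minus Iberian in males, in females and over both sexes, and male minus female over both breeds. NPAS2 lies below 0 in all 3 breed panels, at -0.48 in males, -0.37 in females and -0.42 over both sexes, and none of the points passed the adjusted threshold.

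The second question was whether activators and repressors co-varied over animals. Log2 CPM of the 6 tested genes gave 15 pairs over 20 animals, and 3 pairs passed at a Benjamini-Hochberg adjusted permutation p under 0.05, of which 2 were positive and 1 negative. These 3 calls were absent when Iberian male 5 was left out (0 of 15), and 0 of 15 passed by Spearman's rho. Of 8 pairs of an activator with a repressor, 6 had a positive r and 1 passed, which was negative. Without Iberian male 5, 4 of these 8 pairs were positive and 4 negative, and their median r was 0.0198 against 0.302 over 20 animals. The excess of positive pairs thus depended on that animal. A negative relation of activator and repressor transcripts over animals passed once, and that call was lost without Iberian male 5.

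The activators CLOCK and NPAS2 were positively correlated, at Pearson's r = 0.645 (permutation p = 0.00199, adjusted p = 0.0299) and Spearman's rho = 0.594 (permutation p = 0.007, adjusted p = 0.105). Without the 2 libraries farthest from the CLOCK median, Iberian male 5 and crossbred male 4, r was 0.580. Without Iberian male 5 alone it was 0.614 (permutation p = 0.00511, adjusted p = 0.0767). Within the 13 libraries with a low share of low-quality alignments r was 0.674 (adjusted permutation p = 0.0881). Within the 7 with a high share it was 0.763 (adjusted permutation p = 0.692), and within the 12 low-share libraries left without Iberian male 5 it was 0.596. After group means were removed r was 0.605 (adjusted p = 0.112). The value was thus similar with and without the divergent animal and within both sets, while its adjusted p lay on either side of the threshold. Without Iberian male 5, CLOCK had 11 to 27 counts per library and a spread within groups of 1.18 times that of counting error. This limits what the correlation can show. Over all tested genes, 0.494% correlated as far from 0 with NPAS2 as CLOCK did, and 4.46% correlated as far from 0 with CLOCK as NPAS2 did. When Iberian male 5 was left out, these shares were 0.818% and 0.466%.

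CLOCK and NR1D1 were negatively correlated at r = -0.644 (permutation p = 0.0046, adjusted p = 0.0345), with rho = -0.212 (permutation p = 0.369). Without the 2 libraries farthest from the CLOCK median r was -0.079, and without Iberian male 5 alone it was -0.38 (adjusted p = 0.55). The relation rested on Iberian male 5 and crossbred male 4, without which the call was also lost (r = -0.53, adjusted p = 0.11). Within the 13 low-share libraries r was -0.682, which became -0.38 without Iberian male 5 (n = 12), and within the 7 high-share libraries it was -0.388. With group means removed r was -0.628 (adjusted p = 0.112), so the call was lost there too.

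PER1 and CRY2, both repressors, had r = 0.582 (permutation p = 0.0076, adjusted p = 0.038) and rho = 0.374 (permutation p = 0.104). Without Iberian female 2 and Iberian male 5, the farthest from the PER1 median, r was 0.236, and without Iberian male 5 alone it was 0.395 (adjusted p = 0.55). Within the 13 low-share libraries r was 0.62, which became 0.38 without Iberian male 5 (n = 12), and within the 7 high-share libraries it was 0.794. With group means removed r was 0.557 (adjusted p = 0.168). The call was lost when any 1 of several animals was left out, so the pair lay close to the threshold. These animals were crossbred females 1, 4 and 5, crossbred males 3, 4 and 5, Iberian female 2 and Iberian males 2 and 5. Without crossbred female 2 the adjusted permutation p rounded to 0.05 and the pair still passed.

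Other pairs that place an activator against a repressor did not pass. CLOCK and PER1 had r = 0.488 (adjusted p = 0.107), which passed only when crossbred male 4 was left out (r = 0.655, adjusted p = 0.0379). CLOCK with PER2 had r = 0.358 and CLOCK with CRY2 r = 0.377. Without Iberian male 5, CLOCK had r = 0.212 with PER1, 0.084 with PER2 and -0.053 with CRY2. NPAS2 had r = 0.292 with PER1, 0.101 with PER2, 0.312 with CRY2 and -0.372 with NR1D1. Leaving that animal out, these were 0.156, -0.044, 0.159 and -0.204. Among repressors, PER2 and NR1D1 had r = -0.474 (adjusted p = 0.107), which passed only without Iberian male 1 (r = -0.601, adjusted p = 0.0289). PER1 and PER2, often described as moving together over the day in mice, had r = -0.02 over 20 animals. Without Iberian male 5, r was -0.324 for PER1 with PER2 (adjusted permutation p = 0.658) and -0.271 for PER2 with NR1D1. At 4 to 22 counts per library for PER1, PER2 and CRY2, counting error of 27.5 to 29.6% limits how large a correlation between them can appear.

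**Figure D3:**
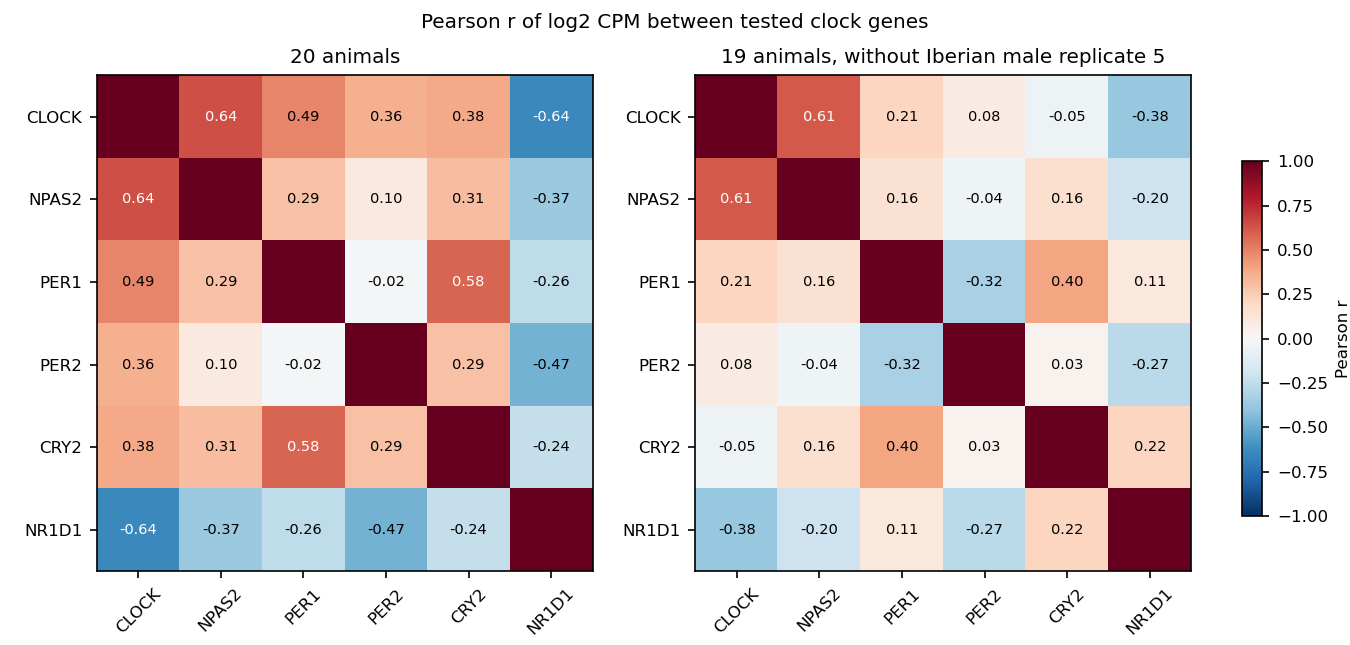
Pearson's r of log2 CPM between the 6 tested clock genes as colour and printed value, over 20 animals (left) and over 19 without Iberian male 5 (right). CLOCK with NPAS2 is 0.64 on the left and 0.61 on the right, whereas CLOCK with NR1D1 is -0.64 and -0.38, and 3 of 15 pairs passed over 20 animals and 0 of 15 over 19.

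**Figure D4:**
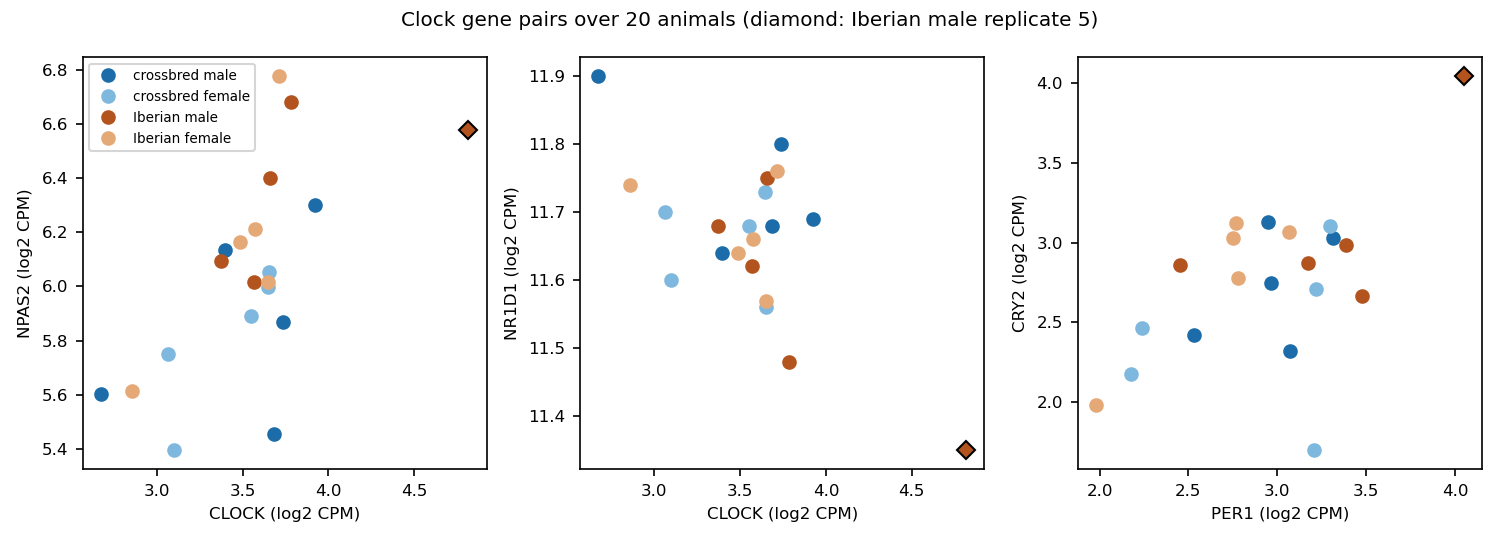
Log2 CPM of the paired genes in each animal for the 3 pairs that passed over 20 animals, coloured by group, with Iberian male 5 as a diamond. CLOCK and NPAS2 keep r = 0.614 without that animal, whereas CLOCK and NR1D1 move to -0.38 and PER1 and CRY2 to 0.395.

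Of 30 relations between the 6 tested genes and 5 library properties, 6 passed at an adjusted permutation p under 0.05, and 1 of them passed without Iberian male 5. That relation was NR1D1 with the percentage of entries aligned to several places, at r = 0.839 over 20 libraries (permutation p = 2e-05, adjusted p = 0.0006), with rho = 0.762 (permutation p = 0.00021, adjusted p = 0.0063). Without the 2 farthest libraries r was 0.592, and without Iberian male 5 alone it was 0.723 (adjusted p = 0.0282). Within the 13 low-share libraries r was 0.896 and within the 7 high-share libraries 0.337. This percentage was 3.89% in Iberian male 5 and at most 9.50% in any library, and its part in the NR1D1 results was not tested. CLOCK had r = -0.693 with the same percentage (adjusted p = 0.0206), which was -0.369 without Iberian male 5 (adjusted p = 0.582). The other relations were those of NR1D1 with the percentage of entries in no feature (r = -0.689, adjusted p = 0.0206; -0.457 without Iberian male 5) and with the share of counts taken by ND6 on the log2 scale (r = -0.684, adjusted p = 0.0206; -0.392), and those of CLOCK (r = 0.639, adjusted p = 0.0363; 0.308) and PER1 (r = 0.576, adjusted p = 0.0414; 0.345) with the percentage in no feature. Each of these 4 and the relation of CLOCK with multiple alignment had an adjusted p of at least 0.579 without that animal, and by Spearman's rho none of these 5 passed.

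**Figure D5:**
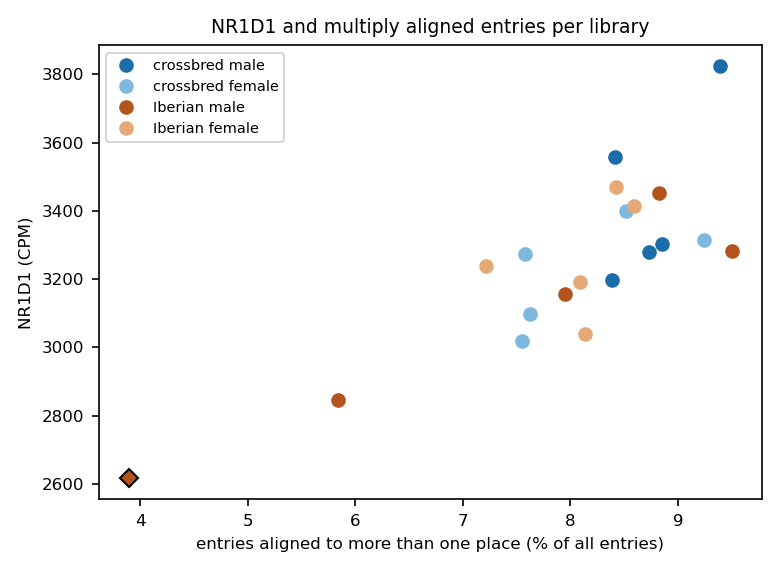
NR1D1 level in CPM against the percentage of entries aligned to several places, 1 point per library, coloured by group, with an NR1D1 axis that does not start at 0. The relation has r = 0.839 over 20 libraries, and Iberian male 5 lies lowest on both axes, at 2616 CPM and 3.89%.

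For each tested clock gene the genes with the most similar pattern over 20 libraries were listed, as a description with no test. CLOCK was most like GJB7 (r = 0.803; 0.68 without Iberian male 5) and SLC7A1 (0.780; 0.538). NPAS2 was most like PNN (0.731; 0.698) and SLC12A1 (0.730; 0.715). PER1 was most like PSMC5 (0.749; 0.697) and FAM32A (0.685; 0.528), PER2 like PSMC3 (0.720; 0.639) and CYP27B1 (0.707; 0.615), and CRY2 like PTMA (0.751; 0.612) and SEC62 (0.748; 0.620). NR1D1 was most like SERHL2 (0.933; 0.889) and CHRNE (0.890; 0.837), the highest values of the 6. The clock genes themselves were left out before this listing, so it cannot show whether they resemble one another. None of the genes named was in the lists of genes around the core loop. Depth and composition differed between libraries, and their part in these correlations was not tested. Of all tested genes, 20.8% had an r beyond 0.5 in size with NR1D1 and 16.6% with CLOCK, against 3.70% with NPAS2. Over the 19 libraries other than Iberian male 5 these shares were 17.1% with NR1D1, 3.27% with CLOCK and 3.32% with NPAS2.

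Genes around the core loop were counted by list, beside 0.226% of all tested genes called between breeds, 7.48% at an unadjusted p under 0.05 and 50.9% below 0. Of 7 tested other loop genes (13 with a row), 0 passed in any of the 5 contrasts, and between breeds 5 had a difference below 0 with a median of -0.09 and 0 at an unadjusted p under 0.05. In males 2 of 7 had an unadjusted p under 0.05 (10.7% of all genes), CIART, a repressor of the CLOCK and BMAL1 pair, at -0.33 (edgeR adjusted p = 0.415) and TIPIN, a partner of TIMELESS, at -0.31 (adjusted p = 0.416). CIART also had an unadjusted p under 0.05 in the interaction (-0.49, edgeR adjusted p = 0.571; 8.36% of all genes), and CIART was named after its values were seen. TIPIN had a log2 difference of -0.13 over both sexes (edgeR adjusted p = 0.794), and without Iberian male 5 it was -0.05 over both sexes and -0.14 in males. Over both sexes TEF, a D-box factor related to DBP, had -0.20 (edgeR adjusted p = 0.855). Of 13 tested genes for kinases, phosphatases, ubiquitin ligases and deacetylases that act on clock proteins, 10 had a breed difference above 0, with a median of 0.05, 0 calls and 0 at an unadjusted p under 0.05. At that p, 1 was higher and 1 lower in females (5.53% of all genes), 1 lower in males and 2 lower in the interaction. SIRT1, named after its values were seen, had 0.80 in females and -0.69 in males. Its interaction was -1.48 (edgeR adjusted p = 0.423), or -1.24 without Iberian male 5 (adjusted p = 0.298). PPP1CB, a catalytic subunit of protein phosphatase 1, had -0.43 (SE 0.262, edgeR adjusted p = 0.737), and CSNK1A1, casein kinase 1 alpha, had 0.21 (adjusted p = 0.781).

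Of 13 tested transcriptional cofactors, 9 had a breed difference below 0 (median -0.09), 0 were called and 0 had an unadjusted breed p under 0.05. With Iberian male 5 left out, 5 of 13 lay below 0, with a median of 0.00844. WDR5, a subunit of histone methyltransferase complexes, had 0.28 (edgeR adjusted p = 0.71), and NCOR1, a corepressor that REV-ERB receptors recruit, had 0.14 (adjusted p = 0.716). Between sexes 12 of these 13 cofactors lay above 0 in males over females, with a median of 0.11, 0 calls and 1 of 13 at an unadjusted p under 0.05. Of all tested genes 52.5% lay above 0 between sexes, with a median of 0.009, 0.0705% called and 3.6% at an unadjusted p under 0.05. Of 5 tested genes for peptides, receptors and factors of the suprachiasmatic nucleus (22 with a row), 0 were called and 1, ADCYAP1, had an unadjusted breed p under 0.05. ADCYAP1, which codes for the peptide PACAP that carries light signals from the retina, had a log2 breed difference of -0.29 (SE 0.122, edgeR adjusted p = 0.564), or -0.36 without Iberian male 5 (SE 0.102, edgeR adjusted p = 0.15), and its receptor ADCYAP1R1 had 0.22 (adjusted p = 0.796).

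Of 9 tested genes of the light and CREB input, 0 were called and 1 had an unadjusted breed p under 0.05. This was SIK2, a kinase that restrains CREB coactivators, at -0.26 (edgeR unadjusted p = 0.0365, adjusted p = 0.616), which had an unadjusted p of 0.081 without Iberian male 5. PRKCA, protein kinase C alpha, had 0.29 (edgeR unadjusted p = 0.116, adjusted p = 0.739). JUN was the single tested immediate early gene of 13 with a row, at 0.20 (edgeR adjusted p = 0.773). Of 5 tested glucocorticoid response genes 0 were called, also at an unadjusted breed p under 0.05, with ERRFI1 at 0.34 (edgeR adjusted p = 0.781) and DDIT4 at -0.12 (adjusted p = 0.838). Leaving out Iberian male 5 gave 0 breed calls in every list, and at an unadjusted p under 0.05 it gave 2 of 14 protein modifiers, 2 of 5 suprachiasmatic genes and 0 of 9 light and CREB input genes, where 8.98% of all genes were. Most genes of the suprachiasmatic and immediate early lists failed the filter on low counts, so their breed differences could not be tested at this depth.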

How the data were processed

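Messenger RNA of 20 hypothalami was sequenced as paired reads of 76 bases. The submitters' processing notes name HISAT2, HTSeq, DESeq2, FastQC and Trim Galore with the build Sscrofa11.1, while versions, annotation and strand setting are not given in the sources used here. The authors deposited raw counts per gene, with 5 summary lines kept out of sizes and tests (no feature 80.2 to 88.1%, not unique 3.89 to 9.50%, low quality 2.73 to 5.92%, not aligned 0.548 to 0.665%, ambiguous 0.0864 to 0.121% of entries). Identifiers were matched to symbols for 14857 of 25880 rows, and positions were read by symbol from the RefSeq table of Sscrofa11.1.

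Counts were tested with edgeR 4.0.16 (quasi-likelihood, robust, TMM, 1 mean per group) in R 4.3.3 over 7090 genes that passed a filter by expected counts (at least 10 in as many libraries as the smallest group holds, and a total of 15), with Benjamini-Hochberg adjustment at 0.05. Standard errors belong to log2 fold changes and intervals are 1.96 SE. CPM use TMM-scaled sizes. Spread over counting error is the Pearson chi-square of counts within groups per degree of freedom. Co-variation used log2 CPM with a prior count of 2 and two-sided permutation tests of 100000 resamples in numpy 2.4.6, with ranks from scipy 1.17.1. Alternatives were RLE, DESeq2 1.42.0, voom in limma 3.58.1, other filters, a replicate block, a low-quality term (limit 4.5%), and each library left out. Named genes were all 10 clock genes, the 2 genes of smallest breed p per list and, with clock genes left out, the 2 genes most like each clock gene. The clock genes and lists were chosen with earlier results of these data known. Labels do not state litters or farms, so p-values measure the spread between these animals. The replicate numbers were not used to pair animals in the main fit, and entered as a block in an alternative. No pair of libraries in a group was a repeat within sampling noise (chi-square per degree of freedom 2.45 to 73.8 over 40 pairs). The test and the correlation step were tested on simulated data.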

Additional observations from a re-analysis of the deposited data

Results flagged for a closer look

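Of 36 combinations of a clock gene and a group of 5 animals, 4 held an animal whose gap to its nearest neighbour exceeded Dixon's critical value of 0.71 of the group's range. For normally distributed values, chance marks about 1 in 20 such groups. That rate need not hold for genes with few counts and tied values, or for genes flagged in the same library. In Iberian male 5, CLOCK was at 27.1 CPM (35 counts) against 9.3 to 12.7 CPM in the other Iberian males. In the same animal CRY2 was at 15.5 CPM (20 counts) against 5.29 to 6.85 CPM, and PER2 at 9.30 CPM (12 counts) against 5.29 to 6.25 CPM. The other Iberian males had 19 to 27 CLOCK, 10 to 16 CRY2 and 10 to 14 PER2 counts. For PER2 the count itself thus lay within their range, and the value stood apart only after scaling to library size. This animal's library also held 157 PRL counts, and the part of that in these levels was not tested. In Iberian female 5, CRY1 was at 1.92 CPM, which is 4 counts, against 0.484 to 0.723 CPM in the other Iberian females, each of which had 1 count.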

How the results depend on the processing

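Over the alternatives run, 0 of the 6 clock genes passed in any contrast. Counts over all tested genes moved with tool and filter. For breed, 16 genes were called, against 27 by DESeq2, 78 with no filter, 0 with the low-quality term and 2 to 23 with 1 library left out. For breed in females, 0 genes were called (392 at an unadjusted p under 0.05), 17 with no filter and 0 to 8 with 1 library left out. For breed in males the count of 2 became 17 by DESeq2, 1 with the 1 CPM filter, 48 with no filter, 0 with the low-quality term and 0 to 7 with 1 library left out. The interaction's 1 call became 2 by DESeq2, 7 with no filter, 0 with the low-quality term and 0 to 1 with 1 library left out. The sex count of 5 became 9 with the 1 CPM filter, 12 with no filter and 5 to 6 with 1 library left out.

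With the replicate number as a block, the NPAS2 breed difference was -0.41 (SE 0.141, edgeR adjusted p = 0.347), the interaction had 0 calls and 0 of 15 pairs passed (CLOCK and NPAS2 at r = 0.605). Same-numbered animals of different groups had correlations of -0.0808 to 0.194 (median 0.0152), with 5 of 30 over 0.1. Animals of different number had -0.233 to 0.220 (median -0.00113), with 7 of 120 over 0.1. Of 20 libraries, 7 correlated best with their own number. Whether the numbers pair animals was not tested. Under this block r became -0.0485 for CLOCK with CRY2, 0.0531 for CRY2 with NR1D1, -0.0659 for NPAS2 with CRY2 and 9.635e-05 for PER1 with NR1D1, and the sex difference of NR1D1 became -0.00283.

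Pairs past the threshold numbered 3, and 0 under Spearman's rho, with group means removed (also without Iberian male 5), within the low-share or the high-share libraries. They numbered 0 to 4 with 1 library left out, with 0 to 1 between activators, 0 to 1 of activator with repressor and 0 to 2 between repressors. With BMAL1 added, 2 pairs between activators passed. Signs also turned, none past the threshold, and the cause was not tested. With the low-quality term they were breed in females for NR1D1 (0.0931) and PER1 (-0.717), the interaction for CLOCK (0.14), NPAS2 (0.21) and PER1 (0.00181), and sex for NPAS2 (-0.0359). Sex for NR1D1 was -0.0113 by DESeq2, -0.0115 by RLE, -0.00954 with the 1 CPM filter and -0.00676 with no filter. Within the high-share libraries r was -0.196 for CLOCK with CRY2, -0.294 for CLOCK with PER1, 0.0773 for CRY2 with NR1D1, -0.127, 0.281, -0.318 and -0.00911 for NPAS2 with CRY2, NR1D1, PER1 and PER2, and 0.0160 and 0.499 for PER1 with NR1D1 and PER2. With group means removed r was 0.0463 for PER1 with PER2. Without Iberian male 5 in addition it was -0.131 for CLOCK with CRY2, 0.239 for CRY2 with NR1D1, -0.0148 for NPAS2 with CRY2 and 0.139 for PER1 with NR1D1. By Spearman's rho CLOCK with PER2 was -0.0331 and CRY2 with NR1D1 0.138. With 1 library left out, log2 differences ran from -0.21 to 0.0279 (CLOCK) and -0.0472 to 0.00191 (NR1D1) for breed in females, -0.0729 to 0.0278 for PER2 between breeds, -0.14 to 0.34 (CRY2) and -0.28 to 0.0114 (NPAS2) for the interaction, and -0.0221 to 0.0252 for NR1D1 between sexes. Likewise r ran from -0.0534 to 0.498 for CLOCK with CRY2, -0.338 to 0.217 for CRY2 with NR1D1, -0.0502 to 0.221 for NPAS2 with PER2, -0.391 to 0.106 for PER1 with NR1D1 and -0.324 to 0.0937 for PER1 with PER2. Low counts of CLOCK, PER1, PER2 and CRY2 limit what could be detected.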

Other observations

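BMAL1, the partner of CLOCK and NPAS2, was added to the pairs after the data had been seen, which gave 21 pairs with 4 past the adjusted threshold. CLOCK and BMAL1 were negatively correlated at r = -0.571 (permutation p = 0.00781, adjusted p = 0.041), with rho = -0.492 (adjusted p = 0.301). Without Iberian male 5, r was -0.371.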
